A study of Mus musculus with 4 samples.

Results

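Natural killer (NK) cells that held RNA of granzyme C (Gzmc) were examined among the immune cells of B16-GP33 mouse melanomas. Each cell carried a barcode, and each captured RNA molecule a unique molecular identifier (UMI), so that a gene's UMI count is its number of molecules read in that cell. A cell passed the NK gate with at least 1 UMI of Ncr1 or Klrb1c, which encode NKp46 and NK1.1, and with none of Cd3d, Cd3e, Cd3g, Cd8b1, Csf1r, Cd79a and Siglech. It was taken as an NK cell with granzyme C when it also held at least 1 UMI of Gzmc. This rule found 216 cells among 25954 cells kept after filtering. The remaining 1240 cells of the NK gate held no Gzmc UMI and are called NK cells without Gzmc. Because Gzmc chose the cells, its own values are given as a description, with no test.

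The cells came from 4 libraries, each from C57BL/6 mice that carried B16-GP33 melanoma, a transplantable tumour line, under the skin. The mice received 200 ug of control IgG, of anti-PD-1, of anti-PSGL-1, or of each of the 2 antibodies (the combination) on days 8, 10 and 12 after tumour injection. Tumours were taken on day 18, digested with enzymes, and living (propidium iodide-negative) cells with CD45.2 on their surface were sorted and captured on the 10x Chromium platform. PD-1 and PSGL-1 are surface receptors known to restrain T cells, and PSGL-1, encoded by Selplg, is also a ligand of selectins. Each treatment is 1 library, and the number of mice in a library is not given in the labels, so a difference between treatments has no replicate check. Throughout, 4 values in a row stand for control IgG, for anti-PD-1, for anti-PSGL-1 and for the combination.

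NK cells are innate lymphocytes that kill stressed or transformed cells without a T cell receptor. They do so by releasing granules of perforin, which opens the target's membrane, and of granzymes, proteases that enter and start cell death. Mice carry a cluster of granzyme genes on chromosome 14 that includes Gzmb, expressed widely in cytotoxic cells, and Gzmc to Gzmg, known from strongly stimulated killer cells. NK cells also secrete chemokines such as XCL1, which draws cross-presenting dendritic cells.

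The kept cells numbered 9465, 5238, 6869 and 4382 per library and held 39983164 to 52674010 UMIs per library. The NK cells with Gzmc numbered 56, 39, 67 and 54. They held 240456, 234999, 491099 and 588528 UMIs in all, with a median of 3522.5, 4789, 5815 and 8902.5 per cell. NK cells without Gzmc held a median of 2466, 3501, 4292 and 4856 UMIs per cell. In every library the cells with Gzmc were thus the deeper ones, and the IgG library was the shallowest and the combination the deepest for both classes. A class is described by its CPM, the UMIs of a gene per 1000000 UMIs of all cells of that class in that library. A count of 0 in the cells with Gzmc allows up to 12.5, 12.8, 6.11 and 5.10 CPM (3 counts), and these limits and all intervals cover counting error only. Between any pair of libraries 5 to 13 kept barcodes were shared. No barcode was shared between cells with Gzmc of different libraries, and 1 such cell, shared between IgG and anti-PD-1, had its barcode in another library's kept cells.

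The cells carried the markers of their label. All 14 genes of the NK marker list, among them Klrk1, Klrd1, Nkg7, Eomes, Tbx21, Gzma, Prf1 and Il2rb, were above 0 in all 4 libraries. Ncr1 and Klrb1c of this list were used by the gate. The list summed to 10735 to 12168 CPM against 12769 to 23622 CPM in NK cells without Gzmc. The test against those cells, given below, called 7 of 12 lower (Klre1, Nkg7, Eomes, Gzma, Il2rb, Txk and Klra8) and Prf1 higher. Of the 9 T cell markers analysed, Cd4, Cd5 and Cd6, which the gate did not use, were at 0 in all 4 libraries. Cd8a had 1 UMI in the anti-PD-1 and in the combination library, and the summed T cell list, otherwise Cd28, was at 25.5 to 42.8 CPM. CD8 T cells with Gzmc held 4396 to 5960 CPM of the same list. Innate lymphoid cells of group 1 (ILC1) are close relatives of NK cells, and their 8 markers summed to 279, 59.6, 214 and 163 CPM against 130.0, 85.7, 219.5 and 72.0 CPM in NK cells without Gzmc, with Zfp683 at 0 in all but the cells without Gzmc of the anti-PSGL-1 library. Of ILC2 and ILC3 markers only Gata3 was above 0 in the cells with Gzmc. Macrophage and monocyte markers summed to 539 to 1196 CPM against 747 to 1448 CPM, with Csf1r at 0 by the gate and Adgre1 at 0 without it. Erythroid and mast cell markers were at 0, neutrophil markers at 0 to 25.0 CPM, B cell markers at 0 to 3.40 CPM and melanoma cell markers at 1.70 to 8.51 CPM.

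Of the cells that passed the NK gate, 9.84% held Gzmc in the IgG library (56 of 569; 95% Clopper-Pearson interval 7.52 to 12.6%) and 10.1% in the anti-PD-1 library (39 of 385; 7.30 to 13.6%). The share was 21.3% with anti-PSGL-1 (67 of 315; 16.9 to 26.2%) and 28.9% with the combination (54 of 187; 22.5 to 35.9%). The intervals of IgG and anti-PD-1 overlapped each other and lay below those of the 2 libraries that received anti-PSGL-1, whose intervals overlapped. With cells thinned to 2000 UMIs, and those with fewer left out, the shares were 8.97% (6.45 to 12.1%), 7.38% (4.92 to 10.6%), 15.4% (11.5 to 20.0%) and 22.5% (16.7 to 29.1%). They rest on 435, 366, 305 and 187 cells of the NK gate, in place of 569, 385, 315 and 187. At this equal depth the intervals of IgG and anti-PSGL-1 overlapped, while that of the combination still lay above those of IgG and anti-PD-1. At a threshold of 2 UMIs the shares were 5.98, 5.71, 16.2 and 21.4%. Over all kept cells the cells with Gzmc made up 0.592, 0.745, 0.975 and 1.23%, while the whole NK gate made up 6.01, 7.35, 4.59 and 4.27%. Free RNA in the droplets can give a UMI to a cell that does not make the RNA, so the same share was taken in Csf1r-positive cells. These had no UMI of Ncr1, Klrb1c or the Cd3 genes, a gate meant for macrophages and monocytes that did not exclude Siglech. Their median depths were 5158, 6728.5, 7458 and 8447 UMIs. There it was 0.271, 3.38, 1.54 and 1.69%, and 0, 0.0603, 0.0570 and 0.0805% at 2 or more UMIs. The NK gate was above this share in all 4 libraries. With anti-PSGL-1, 1 Csf1r-positive cell held 80 of the 106 Gzmc UMIs of that set, and whether it made the RNA was not tested. The cells just inside the rule, with exactly 1 Gzmc UMI, numbered 22, 17, 16 and 14, and how many of them hold free RNA only was not tested.

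Gzmc RNA was spread very unevenly over these cells. They held 840, 1414, 1559 and 4936 Gzmc UMIs, which is 3493, 6017, 3175 and 8387 CPM, but the median cell held only 2, 2, 5 and 11. The highest cell held 181, 433, 383 and 1262 UMIs, and the top 5 cells together 73.3, 82.6, 56.2 and 61.4% of all Gzmc UMIs of the class. Cells with 10 or more UMIs numbered 10, 11, 26 and 27, and cells with 100 or more 3, 3, 3 and 10. The combination library stood highest in the median, in the highest cell and in the number of cells past 100 UMIs. The class level, by contrast, was lower with anti-PSGL-1 than with anti-PD-1 although its median cell held more, and in each of these libraries 3 cells with 100 or more UMIs stood in the sum.

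**Figure D1:**
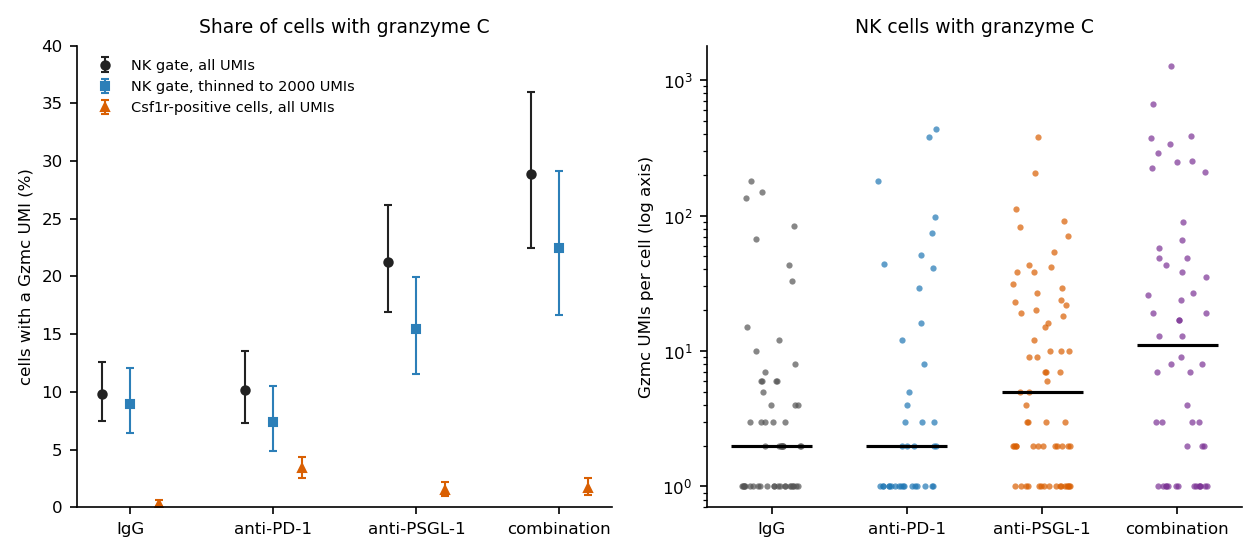
Share of cells with at least 1 Gzmc UMI by library (left, percent) in the NK gate with all UMIs, in the NK gate with cells thinned to 2000 UMIs and in Csf1r-positive cells, with 95% Clopper-Pearson bars, and Gzmc UMIs of each NK cell with Gzmc (right, log axis), with a line at the median. The share was 9.84 and 10.1% with IgG and anti-PD-1 against 21.3 and 28.9% with anti-PSGL-1 and the combination, and the median was 2 UMIs in the first pair of libraries and 5 and 11 in the others.

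Gzmc lies on chromosome 14 at 56231441 to 56234656 on the minus strand (GENCODE M21, mm10), between Gzmf at 56205263 to 56211417 and Gzmb at 56258838 to 56262260, and all genes named here are protein coding. Since the rule rests on Gzmc alone, the neighbours show how far its expression is shared within the cluster. To let the control regions be compared, the 250 bases before the start of 5 genes of the cluster are given 5′ to 3′ on the minus strand, from RefSeq (GRCm38.p6), in which all 7 genes of the cluster were matched. Capitals mark the letters TGTGGT on either strand, the core that RUNX factors bind, and in Gzmb also the letters TGANTCA bound by AP-1. The windows are chr14:56234658-56234907 for Gzmc, chr14:56132594-56132843 for Gzmd, chr14:56120626-56120875 for Gzme, chr14:56211408-56211657 for Gzmf and chr14:56262335-56262584 for Gzmb.
Gzmc: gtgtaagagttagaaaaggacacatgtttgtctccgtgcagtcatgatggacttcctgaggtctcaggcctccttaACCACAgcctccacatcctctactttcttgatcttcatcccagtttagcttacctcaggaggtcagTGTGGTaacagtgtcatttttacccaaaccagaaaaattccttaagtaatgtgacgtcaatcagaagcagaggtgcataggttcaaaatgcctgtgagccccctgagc
Gzmd: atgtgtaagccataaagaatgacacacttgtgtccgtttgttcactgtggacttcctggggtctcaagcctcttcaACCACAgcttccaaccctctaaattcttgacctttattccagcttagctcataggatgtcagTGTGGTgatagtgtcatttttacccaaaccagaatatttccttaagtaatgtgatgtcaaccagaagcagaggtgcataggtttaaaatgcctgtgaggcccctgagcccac
Gzme: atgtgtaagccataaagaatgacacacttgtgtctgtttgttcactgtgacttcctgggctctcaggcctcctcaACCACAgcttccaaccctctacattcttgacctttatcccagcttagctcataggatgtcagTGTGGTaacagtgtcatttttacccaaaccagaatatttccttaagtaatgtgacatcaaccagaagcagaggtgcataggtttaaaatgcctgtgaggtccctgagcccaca
Gzmf: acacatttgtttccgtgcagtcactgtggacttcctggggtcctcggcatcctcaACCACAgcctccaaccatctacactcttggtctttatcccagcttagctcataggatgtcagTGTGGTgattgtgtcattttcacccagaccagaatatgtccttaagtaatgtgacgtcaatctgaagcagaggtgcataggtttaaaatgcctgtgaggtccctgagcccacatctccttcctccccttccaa
Gzmb: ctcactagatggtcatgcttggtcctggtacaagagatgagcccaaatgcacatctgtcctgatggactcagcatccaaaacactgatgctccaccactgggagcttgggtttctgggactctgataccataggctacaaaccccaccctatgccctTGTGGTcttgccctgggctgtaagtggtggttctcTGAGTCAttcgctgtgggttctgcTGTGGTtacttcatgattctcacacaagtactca
The Gzmc window shared 83.6% of aligned bases with Gzmd, 84.4% with Gzme, 79.2% with Gzmf and 80.8% with Gzmg, but 50.8% with Gzmb and 49.6% with Gzmn, and Gzmd and Gzme shared 95.2%. Gzmc, Gzmd, Gzme, Gzmf and Gzmg each held a RUNX match on the opposite strand, 174, 174, 175, 195 and 190 bases before the start, and another as printed, 108, 112, 113, 133 and 128 bases before it. Gzmb held RUNX matches 93 and 34 bases and an AP-1 match 58 bases before its RefSeq start, and Gzmn held none. The RefSeq start of Gzmb lies 74 bases before its start in GENCODE M21, against 15 bases or fewer in either direction for the other 6 genes, and the bases after it were found in no GENCODE transcript of Gzmb, so distances in Gzmb are not set against those of the other genes. Among 27025 promoter windows of this length, 14.2% held a RUNX match and 1.26% at least 2, and 6.87% held an AP-1 match. The letters GGTGTG of T-box factors, TTCNNNGAA of STAT factors and CCGGAAGT of ETS factors, found in 16.2, 7.18 and 2.93% of windows, were in none of the 7. A match is a run of letters and not a measured binding site.

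RNA of the closest copies of Gzmc was found in few of the cells. Gzmb, by contrast, was held by 41, 32, 59 and 49 of them, at 1402, 1629.8, 1456 and 3609 CPM. Gzmd was at 0, 634, 208 and 216 CPM, with UMIs in 0, 2, 1 and 6 cells, and single cells held 104 of 149 UMIs with anti-PD-1 and all 102 with anti-PSGL-1. Gzme was at 8.32, 238, 73.3 and 153 CPM in 1, 3, 2 and 6 cells, and Gzmf at 0, 8.51, 0 and 155 CPM in 0, 2, 0 and 4 cells, of which 1 held 88 of 91 UMIs with the combination. Gzmg had UMIs in 0, 1, 1 and 1 cells and Gzmn in none. In NK cells without Gzmc, Gzme was at 0, 0.759, 0 and 1.38 CPM. Gzmd, Gzme, Gzmf and Gzmg passed the filter on low values only through the cells with Gzmc, so no test of them is used here. These genes are related copies, and whether reads were split between them or moved from Gzmc in counting was not tested.

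The cells with Gzmc were next set against NK cells without Gzmc of the same library, the most similar cells of the tumours. UMIs were summed per library and class, and the 8 sums were tested with edgeR's quasi-likelihood test with the library as a block, so that the result is an average over the 4 treatments and is adjusted with the Benjamini-Hochberg method over 6957 genes. The p-values measure the spread of the difference over 4 libraries that differ in treatment. A gene was tested when its mean over the sums was at least 10 CPM, so a gene under 10 CPM on average in 1 class entered through the other class only, and such genes are named beside the counts of their group. At an adjusted p under 0.05, 611 genes (8.78% of those tested) were higher and 375 (5.39%) lower in the cells with Gzmc. Without the scaling step (trimmed mean of M-values) the split was 451 higher and 502 lower. Of the genes given as markers of these cells, Gzmc apart, Pdgfa and Xcl1 were higher and Klrb1f did not pass the test.

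Secreted factors divided in both directions: of 19 tested genes for cytokines, chemokines and growth factors, 8 were higher (5 without the IgG library) and 3 lower, at a median log2 fold change of 0.24 against 0.01 over all genes. Of the 8, Csf2, Ccl1 and Tnfsf4 entered only through the cells with Gzmc, which leaves 5. Spp1, which encodes the secreted adhesion protein osteopontin (chromosome 5, 104435118 to 104441050), was at 349, 1447, 511 and 1623 CPM in the cells with Gzmc and at 55.6, 50.8, 169.7 and 163 CPM in NK cells without. The lowest library with Gzmc lay above the highest without it (log2 fold change 3.12, SE 0.29, edgeR adjusted p = 4.6e-07). Its UMIs lay in 10, 8, 26 and 33 cells, with 300 of 955 in the top cell of the combination. Pdgfa, the A chain of platelet-derived growth factor (chromosome 5, 138976014 to 138997370), was at 66.5, 72.3, 104 and 180.1 CPM against 18.8, 13.7, 49.9 and 24.9 CPM. All 4 libraries with Gzmc lay above all 4 without (log2 fold change 1.98, SE 0.25, edgeR adjusted p = 1.5e-05). Xcl1 (chromosome 1, 164931644 to 164935527) was at 2533, 1387, 1271 and 1050.1 CPM against 862, 734, 1359 and 576 CPM. It was higher in 3 of 4 libraries and slightly lower with anti-PSGL-1, so that the classes overlapped (log2 fold change 0.88, SE 0.15, edgeR adjusted p = 0.00051), and the call was lost with DESeq2 (adjusted p = 0.064). Areg, a ligand of the epidermal growth factor receptor, and Ltb, of the tumour necrosis factor family, were higher on average (log2 fold changes 1.78 and 0.68), each in 3 of 4 libraries. Csf2, a myeloid growth factor, was at 49.9, 0, 8.14 and 37.4 CPM against 4.33, 5.31, 4.82 and 1.38 CPM, lower with anti-PD-1. The chemokine Ccl1 was at 295, 55.3, 6.11 and 238 CPM against 4.33, 0, 2.41 and 0 CPM, with UMIs in 6, 2, 1 and 6 cells.

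In the other direction, Ccl5, a chemokine of cytotoxic lymphocytes, was at 3139.9, 4409, 2682 and 2182 CPM in the cells with Gzmc and at 9304, 11647, 7241 and 12497 CPM in those without. The highest library with Gzmc was below the lowest without (log2 fold change -1.66, SE 0.12, edgeR adjusted p = 9.9e-09). Ccl4 was lower too (-1.21), as was Ccl9 (-1.52). Ifng, the gene of interferon gamma, was at 74.9, 55.3, 163 and 45.9 CPM against 91.0, 121, 58.7 and 85.8 CPM and did not pass the test (log2 fold change 0.09, SE 0.29, edgeR adjusted p = 0.89).

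Among granule and killing genes, 4 of 17 tested were higher and 3 lower. Gzmb was higher on average (log2 fold change 0.60, SE 0.13, edgeR adjusted p = 0.0028), at 1402, 1629.8, 1456 and 3609 CPM against 1030.1, 1966, 749 and 1929 CPM, and lower in the anti-PD-1 library. Prf1, the gene of perforin, and Cst7, a cathepsin inhibitor of the granules, were higher (log2 fold changes 0.33 and 0.79, edgeR adjusted p = 0.025 and 3.5e-05), as were the protease inhibitors Serpinb9b and Serpina3g (0.63 and 0.45). Gzma was lower, at 4595, 4655, 4239 and 5128 CPM against 7813, 11148, 5257 and 13681 CPM, and every library with Gzmc lay below every library without (log2 fold change -0.87, SE 0.11, edgeR adjusted p = 1.5e-05). Nkg7, a granule membrane protein, and Fasl, the ligand of the death receptor Fas, were lower by less (-0.43 and -0.50). The median log2 fold change over the 17 genes was 0.08. With the IgG or the anti-PD-1 library left out, 2 genes in place of 4 were called higher.

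Inhibitory receptors were higher where they passed the test, while activating receptors divided. Of 9 inhibitory receptors tested, 4 were higher (2 without the combination) and none lower: Klrg1, Lag3, Ctla4 and Lilrb4a, with log2 fold changes of 0.99, 1.45, 0.99 and 1.16. Klrg1, a lectin receptor of cadherins, was at 74.9, 102, 145 and 158 CPM against 55.6, 45.5, 68.4 and 84.4 CPM, higher in 4 of 4 libraries but with overlap between the classes (log2 fold change 0.99, SE 0.17, edgeR adjusted p = 0.00038), and it did not pass without cells holding Mki67 or Top2a (edgeR adjusted p = 0.086). Of 21 activating receptors and adaptors, 3 were higher and 6 lower (3 without the combination, 2 without cells holding Mki67 or Top2a). The higher were Tnfrsf9, the costimulatory receptor 4-1BB, Tnfrsf18, its relative GITR, and Crtam, an adhesion receptor that was slightly lower with anti-PD-1 (17.0 against 19.0 CPM). Tnfrsf9 was at 457, 579, 491 and 868 CPM against 264, 333, 294 and 399 CPM, above in all 4 libraries with no overlap between the classes (log2 fold change 0.94, SE 0.10, edgeR adjusted p = 1.7e-06). The lower were Klrb1a, Klrc2, Klre1, Cd27 and the signalling adaptors Hcst and Fcer1g, with log2 fold changes from -0.84 in Klrc2 and -0.82 in Klrb1a to -0.32 in Fcer1g. Klrb1f, a lectin receptor of the NK gene complex on chromosome 6 (129045901 to 129057464), was at 108, 136, 181 and 129 CPM against 103, 66.8, 150.4 and 111 CPM. It was higher in 4 of 4 libraries but not past the threshold (log2 fold change 0.43, SE 0.16, edgeR adjusted p = 0.077). Of 8 Ly49 receptors, which bind class I molecules, Klra8 and Klra4 were lower (-0.69 and -0.41) and none was higher.

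Cell cycle genes were higher in the cells with Gzmc. Mki67 or Top2a, 2 genes of proliferating cells, had a UMI in 14.3, 23.1, 28.4 and 40.7% of the cells with Gzmc and in 8.58, 13.6, 19.4 and 18.8% of those without. Of 21 cell cycle genes tested, 16 were higher and none lower, at a median log2 fold change of 1.35. Rrm2 and Tyms, which make the building blocks of DNA, had log2 fold changes of 2.29 and 1.65, the replication helicase subunit Mcm3 1.44, and Mki67 and Top2a 1.35 and 1.24 (edgeR adjusted p = 0.00011, 0.00036, 0.0002, 0.0049 and 0.0011). Mki67 was higher in 3 of 4 libraries and at 8.51 against 16.7 CPM with anti-PD-1. Of the 16 genes, Ccnb2, Ccna2 and Tpx2 entered only through the cells with Gzmc, which leaves 13. The number of these calls depended on the fit: 8 with DESeq2 and 4 of 18 with cells thinned to 2000 UMIs. It was 6 without the IgG library and 8 without the combination. With the cells holding Mki67 or Top2a, called dividing cells below, left out of both classes, 9 cell cycle genes could still be tested and 1 was higher.

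Genes of growth and of glucose use were higher as groups. Of 20 genes of ribosome production, polyamine synthesis, nuclear transport and protein folding, 16 were higher and 1, the amino acid transporter subunit Slc3a2, lower, at a median of 0.71, and of the 16 its partner Slc7a5 entered only through the cells with Gzmc. Srm, a polyamine enzyme, Ranbp1, a partner of the transport protein Ran, Hspd1, a mitochondrial chaperone, and Npm1, a nucleolar protein, had log2 fold changes of 1.34, 1.14, 0.99 and 0.81. Of 21 genes of hypoxia and glycolysis, 13 were higher and none lower, at a median of 0.75. Mif, a cytokine gene that low oxygen induces, was at 661, 957, 821 and 948 CPM against 324, 366, 484 and 336 CPM. All 4 libraries with Gzmc lay above all 4 without (log2 fold change 1.23, SE 0.11, edgeR adjusted p = 2.2e-07). The glycolytic enzymes Pgk1, Tpi1, Ldha and Gapdh had log2 fold changes of 1.21, 1.08, 0.95 and 0.91. Of 14 genes of oxidative phosphorylation, 7 were higher (3 without anti-PD-1 or without the combination) and none lower, with the ATP synthase subunit Atp5g1 at 0.64. Without dividing cells 7 growth genes and 10 hypoxia and glycolysis genes were still called higher, and 2 of oxidative phosphorylation. Among the growth genes, Ranbp1 and Srm then had log2 fold changes of 0.46 and 0.56 and did not pass (edgeR adjusted p = 0.1 and 0.49). Thinned, 7, 7 and 1 genes of the 3 groups were called, and without the IgG library 10 growth genes and 2 of oxidative phosphorylation.

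Genes of circulating mature NK cells were mostly lower. Of 13 tested, 10 were lower and 1, Klrg1, higher, at a median of -0.93. Cma1, the gene of a chymase known from mast cells and from mature NK cells, was at 4.16, 4.26, 8.14 and 3.40 CPM against 83.1, 90.3, 56.3 and 105 CPM. The classes lay far apart in every library (log2 fold change -3.90, SE 0.34, edgeR adjusted p = 2.2e-07), while mast cell markers were at 0 in both classes. Of the 10 genes Cma1 entered only through the cells without Gzmc. Klf2, a transcription factor of recirculating lymphocytes, was at 146, 174, 128 and 61.2 CPM against 381, 299.7, 245 and 201 CPM, lower in all 4 libraries with no overlap (log2 fold change -1.11, SE 0.15, edgeR adjusted p = 3e-05). Eomes, a T-box factor of NK maturation, was at 166, 80.9, 155 and 131 CPM against 292, 308, 226 and 248 CPM, without overlap (log2 fold change -0.89, SE 0.16, edgeR adjusted p = 0.00057), whereas its relative Tbx21 did not pass (log2 fold change -0.25, SE 0.17, edgeR adjusted p = 0.39). The integrins Itgam, Itga2 and Itgb7 and the egress receptor S1pr1 were lower as well, with log2 fold changes of -1.36, -1.76, -1.09 and -1.19. Thinned, 6 of these genes were called lower, and 8 without dividing cells. Of 9 macrophage and monocyte markers tested, Lyz2, Cd14 and Ly6c2 were lower (-2.14, -1.35 and -0.45), and the complement genes C1qa, C1qb and C1qc higher on average (2.90, 1.23 and 1.97), though in only 3, 2 and 2 of 4 libraries, C1qa and C1qc having entered only through the cells with Gzmc. Thbs1, known from monocytes, was lower too (-2.21). S100a8 and S100a9 of neutrophils were lower in 3 of 4 libraries, having entered only through the cells without Gzmc, and neutrophil markers summed to 1.52 to 441 CPM in NK cells without Gzmc. The part of other cells' RNA in these differences was not tested.

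Genes for the response to activating cytokines were lower in part. Of 8 genes of interleukin-12 and interleukin-18 signalling, 4 were lower and none higher: Il12rb2 (-0.97), Il18r1 (-0.77), Il18rap (-0.68) and Stat4 (-0.56). Thinned or without dividing cells, 1 was called. In the interleukin-2 and interleukin-15 group, 5 of 16 were lower (3 without the IgG, the anti-PD-1 or the combination library), among them Il2rb (-0.30), Jak1 (-0.54) and the survival gene Bcl2 (-0.80). Il2ra, the high-affinity chain of the interleukin-2 receptor, was the 1 that was higher (log2 fold change 1.66, SE 0.33, edgeR adjusted p = 0.0018). Of 9 genes of the TGF-beta response 4 were lower and none higher. Pmepa1, a target gene of that pathway, was at 137, 132, 61.1 and 76.5 CPM against 334, 334, 154 and 188 CPM, with no overlap between classes (log2 fold change -1.24, SE 0.13, edgeR adjusted p = 2.3e-06). Smad4, Skil and Smad7 had log2 fold changes of -0.78, -0.58 and -0.51. Without the IgG library 1 of these 4 was called, and 2 without the combination, thinned, or without dividing cells. Of 13 tissue residence and ILC1 genes, Cxcr6 and Ltb were higher (1.59 and 0.68), each in 3 of 4 libraries, and Cd9 lower (-0.66). Cxcr6 entered only through the cells with Gzmc.

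Several of the genes with the steepest differences stand in none of these groups. Pxdc1, a protein of little known role, was at 66.5, 85.1, 104 and 184 CPM against 10.1, 13.7, 13.7 and 22.1 CPM, and its lowest value with Gzmc was above its highest without (log2 fold change 2.92, SE 0.21, edgeR adjusted p = 9.9e-09). Ccdc184, AA467197 and Upp1, an enzyme of uridine breakdown, had log2 fold changes of 2.70, 2.22 and 2.08. On the lower side were Pde2a, a phosphodiesterase of cyclic nucleotides, Klf3, a transcription factor, Dhrs3, a retinal reductase, and Smpdl3a, with -1.72, -1.72, -1.62 and -1.55. Selplg, the gene of the treatment target PSGL-1, was at 695, 668, 641 and 554 CPM against 928, 899.8, 709 and 894 CPM (log2 fold change -0.35, SE 0.09, edgeR adjusted p = 0.012). It was lower in 4 of 4 libraries, and the classes did not overlap.

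**Figure D2:**
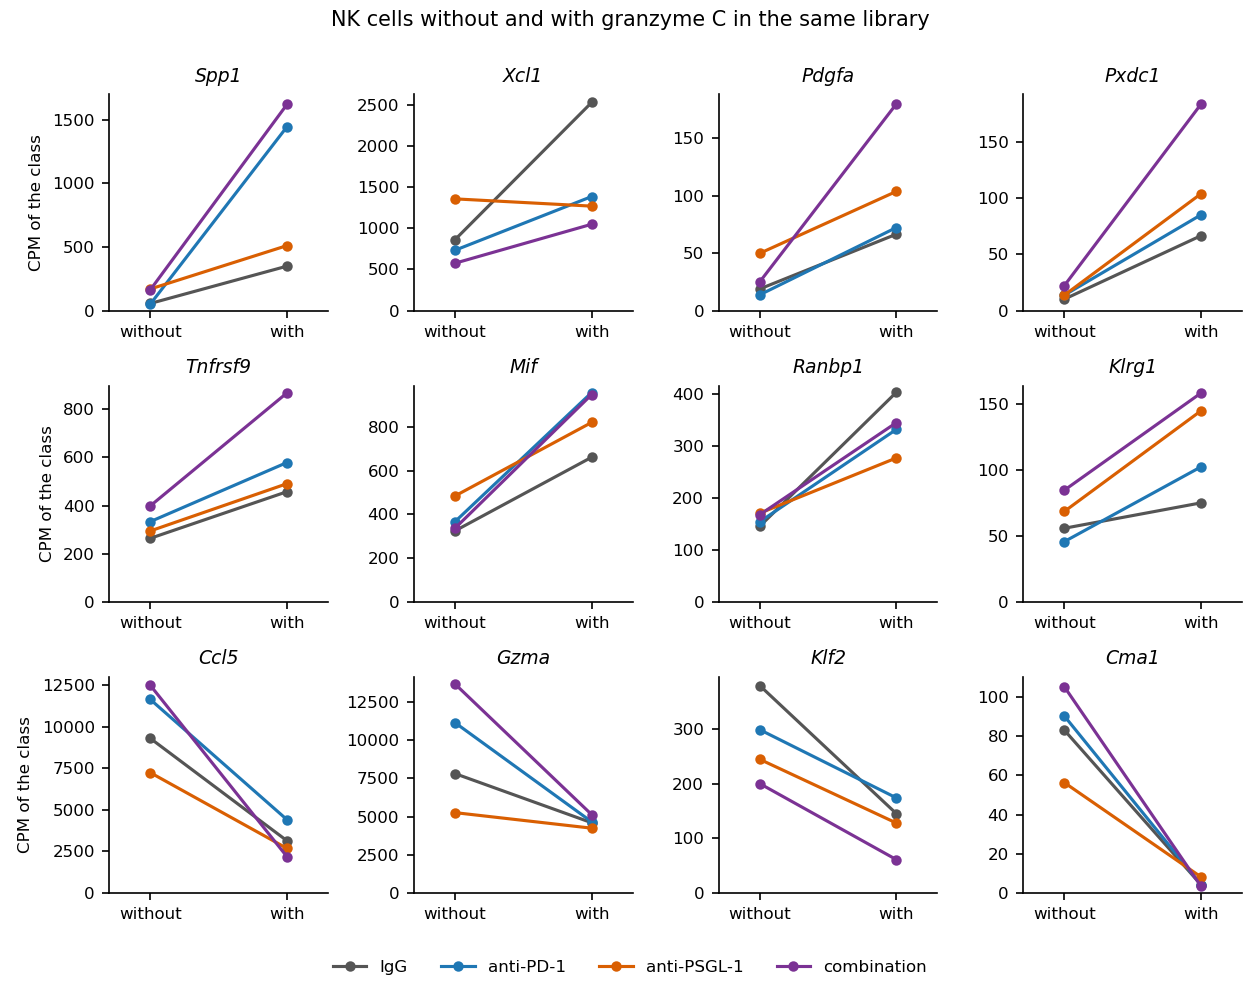
Level (CPM) of 12 genes in NK cells without Gzmc and with Gzmc, each library joined by a line. Spp1, Pdgfa, Pxdc1, Tnfrsf9, Mif, Ranbp1 and Klrg1 go up in all 4 libraries, Xcl1 in 3 of 4, and Ccl5, Gzma, Klf2 and Cma1 go down in all 4.

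**Figure D3:**
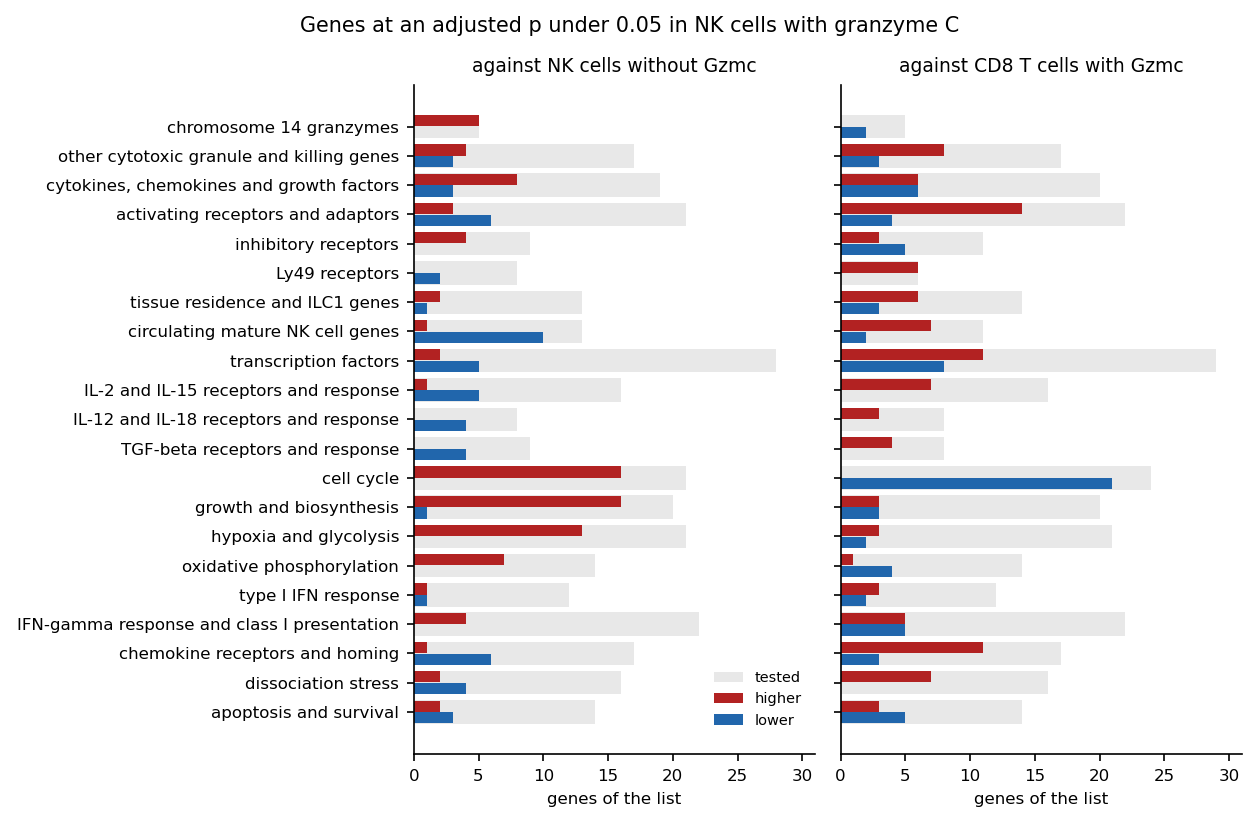
Number of genes of each list that were tested, higher and lower (edgeR adjusted p under 0.05) in NK cells with Gzmc, against NK cells without Gzmc and against CD8 T cells with Gzmc, genes that entered through 1 class only included. Cell cycle genes are higher in the first comparison (16 of 21) and lower in the second (21 of 24).

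For some genes the differences could be followed within the class by the amount of Gzmc. Cells were split into those with 0, 1, 2 to 9, and 10 or more Gzmc UMIs, and values below are in that order. These levels describe cells picked by Gzmc and have no test. Depth moved with the split: the median UMIs per cell were 2466, 2876.5, 3542.5 and 6935 with IgG and 4856, 6899.5, 9029 and 12554 with the combination. Ccl5 was at 9304, 7474, 2039 and 698 CPM with IgG, 11647, 10088, 5776 and 479 CPM with anti-PD-1, 7241, 5666, 2940.0 and 1196 CPM with anti-PSGL-1 and 12497, 5518, 2541 and 1143 CPM with the combination. Its level thus went down with each step in all 4 libraries. Pmepa1 was at 334, 263, 131 and 37.4 CPM, 334, 309, 159 and 18.1 CPM, 154, 89.0, 56.5 and 52.0 CPM and 188, 216, 67.1 and 40.8 CPM, lowest at 10 or more UMIs in each library. Cd7, a surface receptor of NK and T cells, was at 395, 189.8, 174 and 125 CPM, 295, 374, 79.6 and 45.2 CPM, 287, 326, 87.9 and 73.7 CPM and 323, 295, 168 and 65.3 CPM. Cells just inside the rule, with 1 UMI, were in these 3 genes nearer to the cells with 0 UMIs than those with 10 or more were.

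Other genes had their highest level in the cells richest in Gzmc. Spp1 was at 55.6, 14.6, 119.9 and 897 CPM with IgG, 50.8, 0, 15.9 and 3063 CPM with anti-PD-1, 169.7, 79.1, 270.1 and 867 CPM with anti-PSGL-1 and 163, 452, 461 and 2323 CPM with the combination. Klrg1 was at 55.6, 0, 10.9 and 212 CPM, 45.5, 65.1, 63.6 and 145 CPM, 68.4, 119, 75.4 and 204 CPM and 84.4, 29.5, 75.5 and 220.3 CPM. Pdgfa was at 18.8, 29.2, 65.4 and 99.7 CPM, 13.7, 0, 15.9 and 145 CPM, 49.9, 49.4, 69.1 and 152 CPM and 24.9, 108, 75.5 and 234 CPM. In each of the 3 genes the value at 10 or more UMIs was the highest of its library. Cma1 was at 0 in cells with 2 or more UMIs except for 4.33 CPM at 10 or more with anti-PSGL-1. Xcl1 had no common order. It rose at each step with IgG (862, 1139, 2159 and 4151 CPM). With anti-PD-1 it was at 734, 1822, 2005 and 795 CPM, with anti-PSGL-1 at 1359, 1117, 1608 and 1105 CPM and with the combination at 576, 1328, 948 and 1007 CPM. Ccl4, Mki67 and Serpinb9b had no common order either. Ncr1, which the gate used, was at 411, 584, 414 and 449 CPM with IgG and 378, 354, 335 and 386 CPM with the combination.

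**Figure D4:**
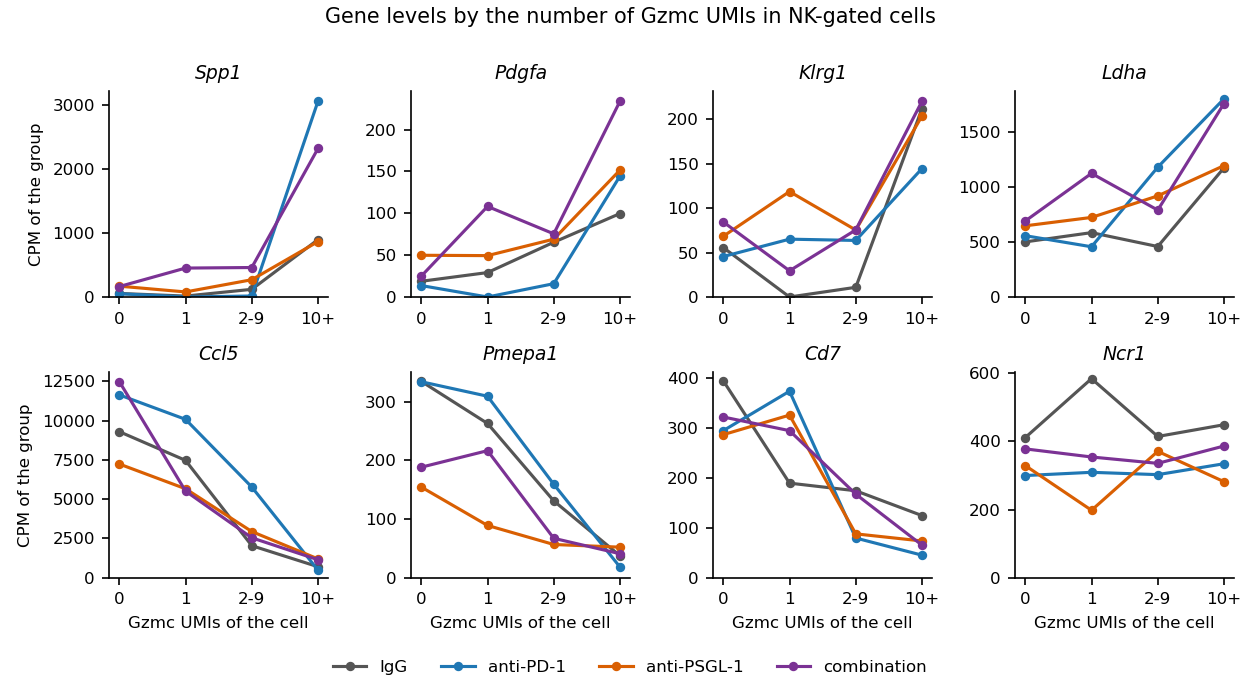
Level (CPM) of 8 genes in NK cells with 0, 1, 2 to 9, and 10 or more Gzmc UMIs, a line for each library. Ccl5 goes down at each step, and Pmepa1 and Cd7 are lowest at 10 or more UMIs in each library. Spp1, Pdgfa, Klrg1 and Ldha reach their top at 10 or more UMIs, while Ncr1 has no order.

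CD8 T cells with Gzmc, killer T cells of the same tumours that share this granzyme, gave the second comparison. They were defined by Cd3 and Cd8 UMIs, no Ncr1 or Klrb1c and at least 1 Gzmc UMI, and numbered 125, 388, 95 and 498, with 6680, 14823, 13218 and 17068.5 UMIs in the median cell. In the same edgeR fit over 7041 genes, 830 (11.8%) were higher and 715 (10.2%) lower in the NK cells with Gzmc, and without the scaling step 703 and 902. The classes differ in their gates, and the genes of either gate are left out of these counts. Genes under 10 CPM on average in 1 of these classes again entered through the other only. Of the genes called in the groups below, this holds for 4 of 14 activating receptors and 2 of 11 homing genes called higher, for at most 1 gene in each other count, and for 5 Ly49 receptors, which are not counted. Among genes named below, Gzmk, Csf1, Tnfrsf4, Havcr2 and Bcl11b entered only through the CD8 T cells. Pdgfa, Klrb1f and Nt5e entered only through the NK cells. Their values are given as a description.

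Of the chromosome 14 granzymes, Gzmf and Gzme were lower in the NK cells and none was higher among 5 tested. Gzmf was at 0, 8.51, 0 and 155 CPM in the NK cells against 465, 2750.0, 494 and 2834 CPM in the CD8 T cells, and the classes did not overlap (log2 fold change -5.20, SE 0.37, edgeR adjusted p = 1.2e-07). Gzme was at 8.32, 238, 73.3 and 153 CPM against 325, 817, 137 and 781 CPM (log2 fold change -1.98, SE 0.27, edgeR adjusted p = 7.7e-05). Gzmb and Gzmd did not pass (edgeR adjusted p = 0.078 and 0.066), with log2 fold changes of -0.31 and -1.04. Of 17 other granule and killing genes, 8 were higher and 3 lower. Gzma was at 4595, 4655, 4239 and 5128 CPM in NK cells with Gzmc against 67.3, 31.5, 86.7 and 66.5 CPM, far apart in each library (log2 fold change 6.40, SE 0.19, edgeR adjusted p = 6.4e-12). The cathepsin gene Ctsw and the protease inhibitor Serpinb6b were higher as well (1.35 and 1.23), and Gzmk was lower (-3.46). Perforin (Prf1) did not pass (log2 fold change 0.19, SE 0.13, edgeR adjusted p = 0.35).

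The genes given as markers of the NK cells with Gzmc came with the choice of these cells, so their levels are a description and no independent support. Klrb1f and Pdgfa entered only through the NK cells. Klrb1f was also at 103, 66.8, 150 and 111 CPM in NK cells without Gzmc, against which it did not pass the test. Klrb1f was at 108, 136, 181 and 129 CPM against 1.84, 0, 1.41 and 0.109 CPM, and Pdgfa at 66.5, 72.3, 104 and 180.1 CPM against 0.922, 1.67, 0 and 0.764 CPM. Both were at or below 1.84 CPM in the T cells of every library. Xcl1 was at 2533, 1387, 1271 and 1050.1 CPM against 93.1, 86.3, 147 and 19.3 CPM (log2 fold change 4.47, SE 0.29, edgeR adjusted p = 4e-08). Vegfa, the gene of a growth factor of blood vessels, was at 370.1, 272, 271 and 153 CPM against 20.3, 6.53, 13.4 and 4.69 CPM, without overlap (log2 fold change 4.87, SE 0.21, edgeR adjusted p = 3.9e-10). Spp1 was also higher on average (log2 fold change 0.86, SE 0.18, edgeR adjusted p = 0.0033), in 3 of 4 libraries. Csf1, a macrophage growth factor, and Ifng were lower. Csf1, which entered only through the CD8 T cells, was at 0, 0, 4.07 and 0 CPM against 59.0, 55.3, 62.0 and 42.2 CPM. Ifng was at 74.9, 55.3, 163 and 45.9 CPM against 367, 415, 266 and 514 CPM, with no overlap (log2 fold change -2.10, SE 0.31, edgeR adjusted p = 0.00016). In all, 6 of 20 secreted factors were higher and 6 lower, and Ccl5 did not pass (log2 fold change 0.26, SE 0.18, edgeR adjusted p = 0.35).

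Of the Ly49 receptors, 5 of the 6 tested entered only through the NK cells. Klra8 was at 208, 196, 326 and 289 CPM in the NK cells against 1.84, 0.335, 0.705 and 0 CPM. Of 22 activating receptors and adaptors, 14 were higher and 4 lower. Tyrobp, the adaptor DAP12, was at 2063, 3034, 2374 and 2190.2 CPM against 249, 45.1, 70.5 and 18.4 CPM (log2 fold change 5.40, SE 0.45, edgeR adjusted p = 4.8e-07). Tnfrsf4, the costimulatory receptor OX40, was at 12.5, 4.26, 6.11 and 0 CPM against 348, 356, 420.1 and 387 CPM, and entered only through the CD8 T cells. Tnfrsf9 did not pass the test (log2 fold change -0.11, SE 0.11, edgeR adjusted p = 0.52). Of 11 inhibitory receptors, Klrg1, Lilrb4a and Nt5e were higher and Pdcd1, Havcr2, Lag3, Ctla4 and Entpd1 lower. Pdcd1, the gene of PD-1, was at 0, 12.8, 22.4 and 13.6 CPM in NK cells with Gzmc and at 423, 578, 419 and 614 CPM in the CD8 T cells (log2 fold change -5.12, SE 0.25, edgeR adjusted p = 1.9e-09). Its values in the NK cells were at or below 22.4 CPM in all 4 libraries. Selplg was higher in the NK cells (log2 fold change 0.79, SE 0.11, edgeR adjusted p = 6.4e-05).

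Of 24 cell cycle genes tested, 21 were lower in the NK cells (7 of 14 without dividing cells) and none higher, with log2 fold changes of Top2a and Mki67 of -0.88 and -0.97 on the log2 scale. Homing and survival genes went the other way: of 17 chemokine receptors and homing genes 11 were higher and 3 lower, with the monocyte and NK receptor Ccr2 at 3.29 and Cxcr6 at -3.55. Bcl2 (2.94) and the transcription factors Tcf7 (3.48), Eomes (1.78) and Irf8 (1.29) were higher. Tox (-2.76), Batf (-1.68) and Bcl11b (-4.18), factors of exhausted or committed T cells, were lower. Of 16 dissociation stress genes, which enzyme digestion can induce, 7 were higher, among them Fos, Jun and Junb, and none lower, and their part in the other differences was not tested. Among the genes with the steepest differences, Car2, a carbonic anhydrase, Atp1b1, a subunit of the sodium pump, and Rab27b, a regulator of granule release, were higher (7.89, 7.52 and 7.08). Themis, a signalling gene of T cells, Gldc, an enzyme of glycine breakdown, and Cdkn2a, a cell cycle inhibitor, were lower (-6.16, -7.66 and -5.24).

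**Figure D5:**
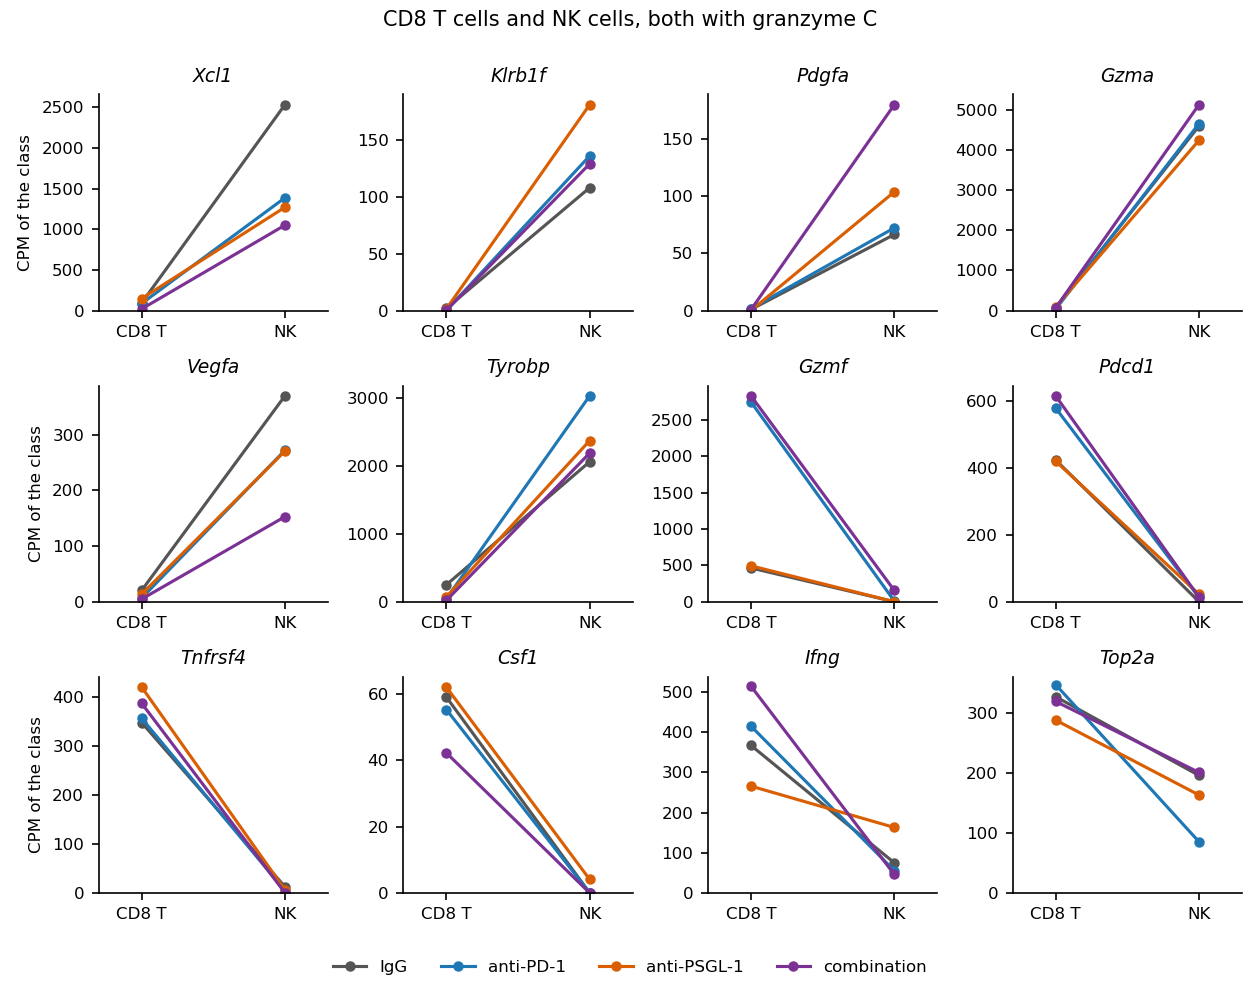
Level (CPM) of 12 genes in NK cells with Gzmc and in CD8 T cells with Gzmc, by library. Xcl1, Klrb1f, Pdgfa, Gzma, Vegfa and Tyrobp lie higher in the NK cells and Gzmf, Pdcd1, Tnfrsf4, Csf1, Ifng and Top2a in the CD8 T cells.

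Treatments were compared within the NK cells with Gzmc by the ratio of CPM, with an exact conditional 95% interval. Each group is 1 library, so no test is given, and the intervals treat UMIs as independent although some genes have most of theirs in a few cells. Genes were counted where 1 of the libraries compared reached 50 CPM, and the share of them past 1.5-fold was 14.8% higher and 15.5% lower for anti-PD-1 against IgG, 9.87 and 15.9% for anti-PSGL-1, 11.2 and 13.8% for the combination, and 12.8 and 14.2% for the combination against anti-PD-1. Past 1.5-fold with an interval that excludes 1 were 4.23 and 5.28%, 4.24 and 7.31%, 4.42 and 6.28%, and 5.84 and 7.2% of genes in the same 4 comparisons. With the ratios centred on their median the anti-PSGL-1 comparison had 389 genes higher and 330 lower, in place of 286 and 460. The first 3 comparisons share the IgG library, so their values are set side by side and not counted as agreement. Median depth per cell also moved with treatment, from 3522.5 UMIs with IgG to 8902.5 with the combination, and its part in the ratios was not tested. The make-up by Gzmc UMIs differed too. Cells with 1 UMI numbered 22, 17, 16 and 14, and cells with 10 or more 10, 11, 26 and 27. Genes that moved with Gzmc UMIs, such as Ccl5, Pmepa1, Spp1, Pdgfa and Klrg1, are therefore not compared at like cells, and the part of this was not tested.

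With anti-PD-1, cell cycle genes were lower than with IgG: 13 of 16 counted were past 1.5-fold lower, 10 of them with an interval that excludes 1. Mki67 was at 8.51 against 133 CPM, a ratio of 0.0640 (95% interval 0.00743 to 0.251), with a UMI in 2 of 39 and 5 of 56 cells. Cells with a UMI of Mki67 or Top2a were nevertheless 23.1% with anti-PD-1 (95% interval 11.1 to 39.3%) and 14.3% with IgG (6.38 to 26.2%), and these intervals overlapped. The nucleosome-binding gene Hmgn2 was at 8.51 against 149.7 CPM, a ratio of 0.0568 (95% interval 0.00663 to 0.221), while its ratio in NK cells without Gzmc was 0.719 (0.516 to 0.996). Tmem176b and Tmem176a were at 1 UMI each with anti-PD-1 and at 83.2 and 70.7 CPM with IgG. Xcl1 was lower, 1387 against 2533 CPM, a ratio of 0.548 (95% interval 0.477 to 0.628), and Ccl4 and Eomes had ratios of 0.368 (95% interval 0.238 to 0.557) and 0.486 (95% interval 0.266 to 0.859). In NK cells without Gzmc Xcl1 and Ccl4 were lower with anti-PD-1 as well, at 734 against 862 CPM and 394 against 761 CPM. Eomes was at 308 against 292 CPM in them. On the higher side stood 8 of 18 hypoxia and glycolysis genes, with Gapdh at 2226 against 1202 CPM and a ratio of 1.85 (95% interval 1.60 to 2.15). Spp1 was higher too, at a ratio of 4.14 (95% interval 3.25 to 5.32), with 200 of 340 UMIs in 1 cell, as were the costimulatory receptor Icos at 3.07 (95% interval 1.60 to 6.27) and the repressor Bach2 at 3.41 (95% interval 1.32 to 10.4). Neither Spp1 nor Icos was higher in NK cells without Gzmc, with ratios of 0.914 (0.649 to 1.28) and 0.825 (0.624 to 1.09), but the difference between the classes was not tested. Of 16 dissociation stress genes 8 were higher and 1, Junb, lower past 1.5-fold with an interval below 1, and the heat shock genes Hspa1a and Hspa1b had 60 of 61 and 44 of 46 UMIs in 1 cell. Arg1, a gene of macrophages, had 29 of 30 UMIs in 1 cell.

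With anti-PSGL-1, 4 of 6 Ly49 receptors counted were past 1.5-fold higher than with IgG, 2 of them with an interval that excludes 1. Klra9 was at 236 against 125 CPM, a ratio of 1.89 (95% interval 1.26 to 2.93), and Klra8 at 326 against 208 CPM, a ratio of 1.57 (95% interval 1.13 to 2.20). In NK cells without Gzmc the same ratios were 0.547 (0.457 to 0.651) and 0.822 (0.732 to 0.924). Klrb1f was at 181 against 108 CPM, a ratio of 1.68 (95% interval 1.07 to 2.70), with a UMI in 39 of 67 cells against 17 of 56. Ccr2, a chemokine receptor for entry into inflamed tissue, had a ratio of 2.09 (95% interval 1.57 to 2.84), Klrg1 of 1.93 (95% interval 1.14 to 3.44), and the histone gene Hist1h2ap of 3.72 (95% interval 2.94 to 4.75), the last at 3.92 (3.38 to 4.57) in NK cells without Gzmc. Ifng was at 163 against 74.9 CPM, but 1 cell held 38 of its 80 UMIs. Xcl1 was at 1271 against 2533 CPM, a ratio of 0.502 (95% interval 0.448 to 0.562), while NK cells without Gzmc had 1.58 (1.46 to 1.70). The interferon-induced chemokine Cxcl10 was lower at 0.207 (95% interval 0.130 to 0.321), the inhibitory receptor gene Klrc1 at 0.548 (95% interval 0.380 to 0.792), Tnfrsf18 at 0.656 (95% interval 0.508 to 0.848) and Pmepa1 at 0.445 (95% interval 0.262 to 0.753). In NK cells without Gzmc Pmepa1 was lower with anti-PSGL-1 as well, at 154 against 334 CPM. Klrb1f and Klrg1 were higher in those cells too, at 150 against 103 CPM and 68.4 against 55.6 CPM. Gzmc itself had a ratio of 0.909 (95% interval 0.835 to 0.989), which was 1.08 with each cell weighted equally and 1.47 without dividing cells.

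With the combination, Spp1 was at 1623 against 349 CPM (IgG), a ratio of 4.65 (95% interval 3.71 to 5.88), with UMIs in 33 of 54 cells against 10 of 56. Pdgfa was at 180.1 against 66.5 CPM, a ratio of 2.71 (95% interval 1.59 to 4.91). Perforin (Prf1) was at 617 against 362 CPM, a ratio of 1.70 (95% interval 1.35 to 2.18), Tnfrsf9 at 868 against 457 CPM, a ratio of 1.90 (95% interval 1.54 to 2.35), and Klrg1 at 158 against 74.9 CPM, a ratio of 2.11 (95% interval 1.27 to 3.72), where IgG had it in 4 cells. These 5 genes were thus higher than in IgG with intervals above 1. In NK cells without Gzmc they also stood higher with the combination than with IgG. There Spp1 was at 163 against 55.6 CPM, Pdgfa at 24.9 against 18.8 CPM and Prf1 at 526 against 324 CPM. Klrg1 was at 84.4 against 55.6 CPM, and Tnfrsf9 went the same way. The difference between the classes was not tested. Of 17 hypoxia and glycolysis genes counted, 10 were higher past 1.5-fold, 9 with an interval that excludes 1, with Gapdh at 2.08 (95% interval 1.83 to 2.37) and the lactate transporter Slc16a3 at 4.25 (95% interval 1.71 to 13.6), and 1, Vegfa, was lower at 0.413 (95% interval 0.305 to 0.560). Tap1 and Tap2, which carry peptides to class I molecules, were at 1.81 (95% interval 1.17 to 2.92) and 1.91 (95% interval 1.14 to 3.37). Lower than in IgG were Xcl1, 1050.1 against 2533 CPM with a ratio of 0.415 (95% interval 0.370 to 0.464), and Cxcl10, Ccl4 and Klf2, at 0.173 (95% interval 0.109 to 0.268), 0.280 (95% interval 0.199 to 0.392) and 0.420 (95% interval 0.256 to 0.689). In NK cells without Gzmc those 4 ratios were 0.668, 0.358, 0.693 and 0.527. Lyz2 and Ccl8, genes of monocytes and macrophages, were at 6.80 and 0 CPM with the combination, and with IgG 2 cells held 28 Ccl8 UMIs.

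Adding anti-PSGL-1 to anti-PD-1 was read from the combination against anti-PD-1 alone. Cell cycle genes were higher: 14 of 17 counted were past 1.5-fold, 12 with an interval that excludes 1. Mki67 was at 127 against 8.51 CPM, and Hmgn2 at 133 against 8.51 CPM, a ratio of 15.6 (95% interval 4.17 to 131). Gzmb was at 3609 against 1629.8 CPM, a ratio of 2.21 (95% interval 1.99 to 2.48), with 0.982 (0.919 to 1.05) in NK cells without Gzmc. Prf1 had a ratio of 1.54 (95% interval 1.23 to 1.96), Pdgfa of 2.49 (95% interval 1.48 to 4.43), Ctla4 of 2.23 (95% interval 1.20 to 4.53), and the glycolytic enzyme Eno1 of 2.45 (95% interval 1.93 to 3.16). In NK cells without Gzmc Prf1 was higher with the combination as well, at 526 against 344 CPM, as was Pdgfa at 24.9 against 13.7 CPM. On the lower side Ccl5 was at 2182 against 4409 CPM, a ratio of 0.495 (95% interval 0.456 to 0.538) against 1.07 (1.05 to 1.10) in NK cells without Gzmc. Split by Gzmc UMIs, Ccl5 was lower with the combination at 1 UMI (5518 against 10088 CPM) and at 2 to 9 UMIs (2541 against 5776 CPM). At 10 or more UMIs it was higher (1143 against 479 CPM). The 3 TGF-beta response genes Skil, Ski and Pmepa1 of 5 counted were lower, Skil at 0.393 (95% interval 0.276 to 0.561). Icos was at 0.328 (95% interval 0.199 to 0.537), Klf2 at 0.351 (95% interval 0.218 to 0.562) and Cxcr4, a homing receptor, at 0.458 (95% interval 0.313 to 0.673). In NK cells without Gzmc Klf2 and Pmepa1 were lower with the combination too, at 201 against 300 CPM and 188 against 334 CPM. Of 16 dissociation stress genes 9 were lower, and the inflammatory chemokine genes Cxcl2 and Ccl2 had 96 of 100 and 47 of 50 UMIs in 1 cell of the anti-PD-1 library. Gzmd, Gzme and Gzmg were lower and Gzmf higher, each resting on 1 to 6 cells in either library.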

How the data were processed

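The authors deposited 1 matrix of UMI counts for each library, whole numbers that are not normalised, over 27998 features. The submitters' processing notes name Cell Ranger 3.1.0, the genome build mm10 and FastQC; which annotation was counted is not given in the sources used here. T cell receptor constant genes, Ighm, Igkc, Pvrig and Klrb1d were not analysed here.

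Barcodes with 300 or more genes, up to 10% of UMIs from mitochondrial genes and no more than 60000 UMIs were kept. Groups came from the treatment labels. The cells and gene lists were chosen with earlier results of these data known. Class sums were tested with edgeR 4.0.16 (R 4.3.3) with the library as a block, genes at a mean of 10 CPM or more, trimmed mean of M-values scaling and Benjamini-Hochberg adjustment. SE is the absolute log2 fold change over the square root of F. On simulated counts, with the mean dispersion of the fit used for every gene, the test was run over the 6957 genes of the comparison with NK cells without Gzmc. It recovered 63% of 2-fold and 94% of 4-fold changes, and 62 and 93% over the 7041 genes of that with CD8 T cells. The simulation held neither genes that differ in spread nor genes with most UMIs in a few cells, so these shares do not give the recovery in the real data.

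Named genes passed the test, had 1 direction in all 4 libraries and a mean of 50 CPM in the higher class. The 10 steepest each way and up to 3 of each list each way were taken. For treatments, the 5 with the interval bound farthest from 1 and up to 2 of each list were taken. Receptor, mitochondrial, ribosomal and sex-linked genes and predicted models were left out of naming by size. Other list members were named after their values were seen. Likely doublets were kept. Scrublet in scanpy 1.11.5 called 1, 84, 0 and 42 cells by its own threshold and had not worked, so an alternative removed the 717, 219, 377 and 154 highest-scoring cells (0.8% per 1000 cells), 2, 2, 0 and 2 of them NK cells with Gzmc. Other alternatives were DESeq2 1.42.0, other filters, thinning to 2000 UMIs (cells with fewer left out) and leaving out each library. Those without Mki67 or Top2a cells, and with Cd3 UMIs allowed, were added after seeing the data. Values of some single genes are not reported here.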

Additional observations from a re-analysis of the deposited data

Results flagged for a closer look

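Values are ratios of NK cells with Gzmc over NK cells without Gzmc within a library, and the differences between libraries were not tested. For Gzmb the ratio was 1.36 with IgG, 1.94 with anti-PSGL-1 and 1.87 with the combination, but 0.829 with anti-PD-1, so the direction was opposite in 1 library. For the chromatin protein gene Hmgb2 it was 1.48, 1.35 and 1.54 in the same 3 libraries and 0.651 with anti-PD-1, although Hmgb2 was called higher on average over the libraries.

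For Ifng the ratio was 2.78 with anti-PSGL-1, where 1 cell held 38 of 80 UMIs, 0.535 with the combination, and 0.459 with anti-PD-1, where 6 cells held it. For the Ly49 receptor gene Klra9 it was 1.53 with anti-PSGL-1, and 0.442 with IgG and 0.649 with the combination.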

How the results depend on the processing

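The count of genes higher in NK cells with Gzmc than in those without was 611 and became 243 with DESeq2, 132 thinned and 197 without Mki67 or Top2a cells, and 249 to 610 with a library left out (254 without IgG, 454 without anti-PD-1, 610 without anti-PSGL-1, 249 without the combination). The count lower was 375 and became 129, 104 and 140 under the same 3 settings, and 137 to 404 with a library left out. DESeq2 gave no adjusted p for 3507 genes. Unadjusted, 1904 genes had p under 0.05. Against CD8 T cells the count higher was 830 and became 495 with a filter at 50 CPM, 373 thinned and 505 without dividing cells, and 591 to 690 with a library left out. The count lower was 715 and became 1107 without a filter, 398 at 50 CPM, 455 at 2 or more Gzmc UMIs and 476 without dividing cells, and 464 to 603 with a library left out. The cause was not tested, apart from fewer or more genes under another filter. Among genes called both as reported and under an alternative, none changed sign. The class comparisons pair the classes of each library through the library block. For the treatments, no paired analysis was possible because each treatment is 1 library.

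Of the named genes' calls against NK cells without Gzmc, 913 kept direction and threshold over the alternatives and 148 did not pass, and against CD8 T cells 1118 and 63. Without IgG, calls lost among the genes of the text were Klf3, Cd14, Fasl, Klra4, Smad4, Skil, Slc3a2 and Serpina3g. Without the combination they were Ctla4, Klf3, Smpdl3a, Fasl, Klrb1a, Cd9, Il12rb2, Smad4, Skil and Slc3a2. Without anti-PD-1 it was Serpina3g, and without anti-PSGL-1 Cd14. Thinned, Rrm2, Tyms, Upp1, Klrg1, Srm, Pgk1, Thbs1, Itgam, Klrc2, Klrb1a, Il12rb2, Il18r1 and Skil were among 39 lost. Xcl1 was lost with DESeq2.

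The share of NK cells with Gzmc was 5.98, 5.71, 16.2 and 21.4% at 2 or more UMIs, and 15.4 and 22.5% thinned in the libraries with anti-PSGL-1 and the combination. For treatments, a floor of 20 CPM gave 1206 genes higher and 1350 lower for anti-PD-1, 887 and 1305 for anti-PSGL-1, 885 and 1238 for the combination, and 995 and 1176 for the combination against anti-PD-1. A floor of 100 CPM gave 171 and 159, 116 and 172, 137 and 136, and 159 and 146. At 2 or more Gzmc UMIs 730 genes were lower for anti-PD-1, and without dividing cells 733 were lower for anti-PSGL-1 and 683 for the combination. Of the named ratios, 880 stayed within their interval, 82 moved and 9 turned. For anti-PD-1 this was Ifi27l2a, at 0.449 without likely doublets. For anti-PSGL-1 they were Ube2c at 1.64 and Gzmc at 1.47 without dividing cells, and Gzmc at 1.08 with cells weighted equally. For the combination they were Cd9 at 1.02 with 2 or more Gzmc UMIs and Ube2c at 3.57 without dividing cells. For the combination against anti-PD-1 they were Hist1h2ap at 0.380, Gzmf at 0.571 and Ctsc at 1.34 without dividing cells. The cause was not tested. The depth of 234999 to 588528 UMIs per class limits genes of low level, and with 39 to 67 cells in a class a few cells can set a gene's level.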

Other observations

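Genes of antigen presentation, homing and survival were counted between NK cells with and without Gzmc, where 8.78% of all genes were higher and 5.39% lower. Of 22 genes of the interferon-gamma response and class I presentation, B2m, Tapbp, Psmb8 and Psme2 were higher and none lower in the cells with Gzmc, and without the IgG library none was called. Of 12 type I interferon genes, Bst2 was higher and Zbp1 lower. Of 17 chemokine receptors and homing genes, Cxcr6, which entered only through the cells with Gzmc, was higher and 6 lower, among them Cxcr4, S1pr1, Selplg, Itga4 and Itgb7, and 3 were called lower without the IgG or the combination library. Of 14 apoptosis and survival genes, Bcl2a1b and Bcl2a1d, inhibitors of cell death, were higher, and Bcl2, Mcl1 and Bcl2l11 lower (1 without the combination). Of 16 dissociation stress genes, the chaperones Hsp90aa1 and Hspa8 were higher and Ier2, Hspa1a, Zfp36 and Atf3 lower (1 without the IgG or the combination library).

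Complement genes show how few cells can carry a class level. C1qa, C1qb and C1qc, genes of macrophages, were among the genes called higher in the cells with Gzmc, yet in the anti-PD-1 library 1 cell held all 25 C1qc UMIs.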
